A study of Mus musculus with 6 samples.

Results

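The loci described here are stretches of the mouse genome that carried RNA in Neuro2a (N2a) cells but have no gene symbol in the deposited expression table. They were chosen by 2 criteria. The gene name field of the row is a dash, and the mean over the 6 libraries is at least 0.5 FPKM, that is, the number of sequenced fragments scaled by transcript length and by the size of the library. The table holds 26657 loci, of which 3064 had no symbol, and 934 of these reached that level. The level over all 6 libraries thus chose the loci and is given below only as a description. The genotype of the libraries was not used to choose them. N2a is an established mouse neuroblastoma line. The study compared 3 libraries of wild-type (WT) N2a cells with 3 libraries of isogenic Nlk-KO cells, which were made by directing Cas9 nickase with paired guide RNAs to Nlk, the gene of Nemo-like kinase. Several single-cell clones with undetectable Nlk protein were expanded, N2a cells are polyploid, and neither the labels nor the methods say which clone each library came from. No treatment, age or time point separates the groups. The labels call the libraries biological replicates.

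An assembler of RNA-sequencing reads joins overlapping fragments into transcripts. A transcript matched to no gene of the supplied annotation is left without a name, even where its stretch overlaps that of a named gene. Such loci can be long noncoding RNAs, which are spliced and polyadenylated but encode no protein, extensions of known genes past their annotated ends, processed pseudogenes, which are copies of an mRNA pasted back into the genome by reverse transcription, or places where a few reads landed. A pseudogene that resembles an abundant mRNA can also receive reads that came from that mRNA. Neuroblastoma cells, like neurons, express many long noncoding RNAs.

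The spans of the 934 loci ran from 77 to 600698 bp with a median of 1998 bp. Under 300 bp there were 214, from 300 bp to 5 kb there were 346, and 374 were longer. A span is the stretch the table gives for a row, and rows that overlap were given the same stretch. Of the 934 loci, 230 shared their coordinates with another row, 223 of them in the longest class, and 86 shared them with a row that has a symbol. For those loci the span is not the length of their own transcript. The 934 rows lay at 853 different positions.

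The libraries were checked first. Nlk was at 15.8, 16.6 and 16.1 FPKM in WT and at 6.78, 7.01 and 6.83 FPKM in Nlk-KO. It was lower in every Nlk-KO library, by −1.22 ± 0.04 on the log2 scale (SE, limma adjusted p = 1.36e-06). Of 10 markers of neuroblastoma and neurons all 10 were detected above 0.5 FPKM, of which 4 fell, 1 rose and 5 did not pass the test. Of 11 markers of blood, endothelium, glia and fibroblasts 8 were under 0.5 FPKM. Pecam1 fell, Pdgfra rose and Mbp did not pass. The library Nlk-KO 2 stood apart on the markers of astrocytes and oligodendrocytes. Mbp, a myelin protein gene, was at 6.46 FPKM there against 1.08 to 1.92 FPKM in the other libraries. In the same library Gfap, Aqp4 and Mog were at 0.437, 0.162 and 0.326 FPKM, against at most 0.0783, 0.0301 and 0.0804 FPKM in the others. The microglial markers Aif1 and Cx3cr1 were at 0 and 0.0135 FPKM there, against at most 0.0424 and 0.00695 FPKM in the others. Without this library 54 of the 934 loci were higher in Nlk-KO and 140 lower, in the comparison described below, and its part in single results was not tested beyond leaving it out. Total reads are not known for these libraries.

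Compared with GENCODE M21 on the same build (GRCm38, mm10), 381 of the 934 loci overlapped no annotated gene. A further 57 lay within an intron only. The rest overlapped an exon: of a long noncoding RNA in 162, of a pseudogene in 156, of a protein-coding gene in 151, of an unverified gene model in 17 and of a small RNA in 10. The kinds were spread unevenly over the spans. Pseudogenes made up 81 of the 214 loci under 300 bp, whereas long noncoding RNAs made up 120 of the 374 longest loci and 4 of the shortest. Where the genome stretch of a locus without annotation is discussed, only its position is given.

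The pseudogenes under short loci are shown because the position of the locus on them recurred. Of 78 short loci on 75 pseudogenes with a transcript sequence, 46 ran past the 3′ end of the pseudogene, 15 ran past its 5′ end and 17 lay inside it. The last 60 bases are given for the 4 such pseudogenes past whose 3′ end the locus with the highest level lay. Capitals mark the bases that fall inside the locus. They are Rps13-ps2 (chr7:88530446-88530505, minus strand), Gm49138 (chr15:18385349-18385408, minus strand), Gm4754 (chr5:41342872-41342931, plus strand) and Gm9794 (chr6:66875321-66875380, minus strand), with GENCODE M21 transcripts on GRCm38 as the source.
Rps13-ps2: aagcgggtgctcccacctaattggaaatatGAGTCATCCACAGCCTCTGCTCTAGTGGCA
Gm49138: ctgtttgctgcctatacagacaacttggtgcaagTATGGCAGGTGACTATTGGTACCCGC
Gm4754: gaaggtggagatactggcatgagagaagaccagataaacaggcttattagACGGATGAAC
Gm9794: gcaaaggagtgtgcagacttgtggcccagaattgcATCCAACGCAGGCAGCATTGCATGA
Only the last 30, 26, 10 and 25 bases of these pseudogenes lay inside the loci, and the rest of each locus lay downstream. Of the 78 loci, 76 lay on a pseudogene that shared at least 1 run of 31 bases with a protein-coding transcript, and the median pseudogene shared 71.1% of its 31-base runs with 1 gene. All 31-base runs of Rps13-ps2 were found in Rps13. In 33 of the loci the gene that shared most was a ribosomal protein gene, from 27 different genes. Ribosomal protein mRNAs are among the most abundant in dividing cells. These shares were counted over the whole pseudogene and not over the bases inside the locus. Bases of a locus outside the pseudogene were not compared with any gene. Where reads of a gene and of its copy are alike they cannot be told apart in these values, so the loci on pseudogenes are uncertain. How many of their reads came from the similar gene was not tested.

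The short loci had by far the highest FPKM. The median over loci was 183 FPKM under 300 bp, 0.848 FPKM from 300 bp to 5 kb and 1.13 FPKM above that. The 84 loci under 100 bp had means from 1617 to 437116 FPKM. In each library the 214 short loci held between 77.2% (Nlk-KO 3) and 91.4% (Nlk-KO 1) of the summed FPKM of the whole table. The 346 loci of 300 bp to 5 kb summed to 876 to 1052 FPKM in a library, and the 374 longest to 985 to 1232 FPKM.

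**Figure D1:**
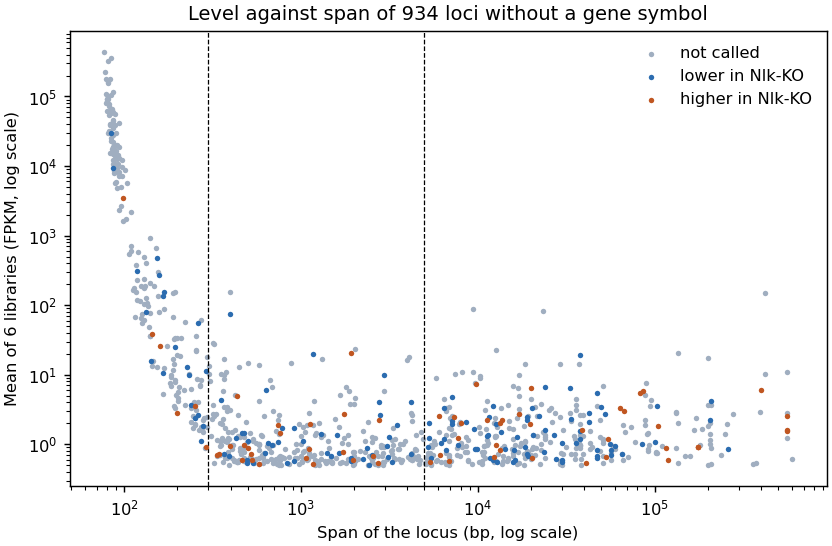
Mean FPKM of the 6 libraries (log scale) against the span of each of the 934 loci (bp, log scale), one point per locus, coloured by the limma call, with dashed lines at 300 bp and 5 kb. Levels fall steeply up to 300 bp, and the 84 loci under 100 bp sit at 1617 FPKM or more.

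These large values rested on few fragments. Loci of the same short span had values that were whole multiples of 1 unit in a library, which is what 1 fragment was worth, so fragments could be counted for 41 loci of 6 spans. At 81 bp a single fragment was worth 10469 to 14300 FPKM, at 84 bp 4054 to 5928 FPKM, at 87 bp 1875 to 2806 FPKM and at 89 bp 1187 to 1785 FPKM, depending on the library. Of 219 values converted, 52.5% were under 10 fragments and 86.8% under 30, with a median of 9 and a highest count of 134. At 87 bp the unit was smallest in WT 3 and largest in WT 1, and the Nlk-KO libraries lay between them.

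**Figure D2:**
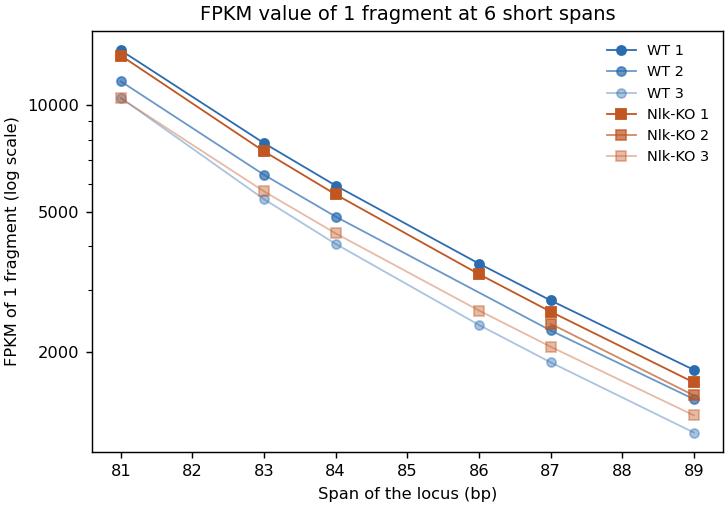
FPKM of 1 fragment (log scale) against the span of the locus (bp), one line per library, WT as circles and Nlk-KO as squares. At 87 bp the 6 libraries lie between 1875 and 2806 FPKM, and at 81 bp the 5 libraries resolved lie between 10469 and 14300 FPKM.

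The 4 short loci with the highest mean show how such values vary. XLOC_022547, the 84-bp locus at the end of Rps13-ps2 (chr7:88530392-88530475), was at 349737, 174297 and 526965 FPKM in WT and at 749642, 263687 and 112884 FPKM in Nlk-KO. In fragments these were 59, 36 and 130 in WT, 134 in Nlk-KO 1 and 26 in Nlk-KO 3, and Nlk-KO 2 was not resolved. The genotypes overlapped, the Nlk-KO values reached past those of WT at both ends, and the log2 difference was −0.18 ± 2.34 (SE). XLOC_011374, of 77 bp on chromosome 18, was at 554972, 934411 and 99021 FPKM in WT against 342245, 381793 and 310252 FPKM in Nlk-KO. XLOC_001439, of 81 bp on chromosome 1, ran from 104689 to 594494 FPKM, with its lowest and its highest value both in Nlk-KO. XLOC_006611, of 78 bp on chromosome 13, was listed at 0 in WT 2 and in Nlk-KO 3 and reached 480340 FPKM in WT 3. None of these 4 passed the test.

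The genotypes were compared by limma on log2(FPKM + 0.1) over all 12667 loci of the table that averaged 0.5 FPKM or more, with p-values adjusted over all of them and a threshold of 0.05. In this comparison 199 of the 934 loci passed, 65 of them higher in Nlk-KO and 134 lower. Over all loci tested 37.1% passed, 18.6% higher and 18.5% lower, and of the loci without a symbol 21.3%, a smaller share. When each library was rescaled to the same sum over loci with a symbol, the order was the opposite. The calls were then 7.27% over all loci and 16.5% over the loci without a symbol, 68 higher and 86 lower. In that fit limma gave all loci of a level the same spread and no locus its own. The part of this in the order was not tested. The median log2 difference over the 934 loci was −0.12, against −0.01 over all loci tested. In bulk RNA, a change in the share of cells that hold a transcript and a change per cell cannot be told apart. A change of more than 2-fold was found at 30 of the loci that rose and 41 of those that fell, and over all loci at 3.16%. The median size of a change that passed was 0.77 on the log2 scale here and 0.29 over the loci with a symbol. Among loci of 0.5 to 5 FPKM and at least 300 bp these sizes were closer, 0.79 and 0.56. Of 655 such loci without a symbol, 24 were called more than 2-fold higher and 34 more than 2-fold lower. With a symbol these were 125 and 106 of 3053 loci. At 287 of the 934 loci the values of the genotypes did not overlap, which over all loci held for 51%. The spread between libraries of 1 genotype was wider, with a median coefficient of variation of 21.1% against 4.24% for loci with a symbol. For values of 0.5 to 5 FPKM and at least 300 bp these medians were 18.3% and 8.07%, with 24.3% of 655 loci without a symbol and 37.1% of 3053 with a symbol called. A locus that reached the level only through 1 genotype must differ between them. Of the 801 loci with both genotype means at 0.5 FPKM or more, 138 passed, 42 higher and 96 lower, and the other 61 calls came from 133 loci with 1 genotype mean below it. XLOC_008178, XLOC_007597, XLOC_015644, XLOC_013375, XLOC_017238, XLOC_011823, XLOC_023925 and XLOC_008615, described below, are among the latter.

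The share that passed differed by span. It was 12.1% under 300 bp (6 higher, 20 lower), 19.1% from 300 bp to 5 kb (23 higher, 43 lower) and 28.6% above that (36 higher, 71 lower). Under 300 bp the count was 17 in place of 26 without WT replicate 1, 7 with the span classes fitted separately and 54 with equal sums over loci with a symbol, a fit in which limma estimated the same spread for all loci of a level. With equal sums the shares were 25.2%, 12.4% and 15.2% in the 3 classes (54, 43 and 57 loci), so that the shortest class came first and the order by span did not hold. The median standard error fell over the same classes, from 0.47 to 0.21 to 0.17 on the log2 scale. By annotation, 29.6% of the loci on long noncoding RNA exons passed (17 higher, 31 lower), 21.5% of those with no annotated gene (20 higher, 62 lower), 18.5% on protein-coding exons (11 higher, 17 lower) and 16.03% on pseudogenes (9 higher, 16 lower). Loci that shared their coordinates with another row passed in 27.8% of 230 cases, and loci with coordinates of their own in 19.2% of 704.

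The 3 longest-class loci that rose most overlapped no annotated gene. XLOC_008178 (chr15:73860080-73873395) was at 0.264, 0.271 and 0.303 FPKM in WT and at 3.44, 4.07 and 3.65 FPKM in Nlk-KO. All 3 Nlk-KO libraries lay far above WT, a log2 difference of 3.33 ± 0.11 (SE, limma adjusted p = 2.08e-06). A second row with the same coordinates, XLOC_008560, rose as well, from 0.151 to 1.49 FPKM. XLOC_022791 (chr8:41680439-41747690) was at 0.444, 0.577 and 0.485 FPKM in WT and at 4.86, 5.22 and 6.27 FPKM in Nlk-KO. Its log2 difference was 3.20 ± 0.13, and 3 other rows have the same coordinates. XLOC_021902 (chr7:71722239-71805050), whose nearest tested locus with a symbol is Nr2f2 at 1311093 bp, was at 2.01, 2.34 and 0.430 FPKM in WT and at 6.49, 12.3 and 9.45 FPKM in Nlk-KO. The groups did not overlap, but WT 3 lay far below the other WT libraries, and the call was lost with a robust prior (limma adjusted p = 0.052). XLOC_009241, over the antisense RNA gene Gm15839 on chromosome 16, rose from 0.511 to 1.94 FPKM.

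Of the 5 longest-class loci of at least 1 FPKM that fell most, 2 lay on annotated long noncoding RNAs. XLOC_007597 (chr14:70844019-70873954), over the long noncoding RNA 2410012E07Rik, was at 1.45, 1.04 and 3.08 FPKM in WT and at 0.356, 0 and 0.269 FPKM in Nlk-KO. A pair of further rows with these coordinates and no symbol, XLOC_007595 and XLOC_007596, also fell, by −0.85 and −1.19 on the log2 scale. The overlapping row with the symbol 2410012E07Rik, at a mean of 3.35 FPKM, fell by −1.16 (limma adjusted p = 2.78e-05), less than XLOC_007597 (−2.80 ± 0.62, SE). XLOC_015644, over the long noncoding RNA Gm29771 (chr3:147121330-147157117), was at 1.92, 1.68 and 1.79 FPKM in WT and at 0.162, 0.387 and 0.336 FPKM in Nlk-KO. Every WT library was above every Nlk-KO library, with a log2 difference of −2.31 ± 0.24 (SE, limma adjusted p = 0.000375). XLOC_024326 (chr9:54787911-54800059), with no annotated gene, fell from 5.05 ± 0.46 to 1.98 ± 0.12 FPKM (SD, n = 3), and the other row at the same position, XLOC_025409, fell by −1.53 on the log2 scale. XLOC_006055, over the pseudogene Gm18759 on chromosome 13, fell from 2.83 to 1.04 FPKM.

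Overlapping rows did not always move together. On chromosome 9 all 4 rows over the long noncoding RNA Gm31816 (chr9:47260692-47308227), chosen after their values were seen, were lower in Nlk-KO. The most abundant of them, XLOC_024963, was at 6.32, 7.49 and 6.62 FPKM in WT and at 4.57, 3.51 and 4.36 FPKM in Nlk-KO. On chromosome 2 the same 38-kb stretch (chr2:10327292-10365250, 37959 bp), 5201 bp from Sfmbt2, held 10 rows over the processed transcript Gm13261, of which 3 fell and 7 did not pass. XLOC_014337 fell from 2.03 to 1.10 FPKM there, whereas XLOC_014334 was at 2.99, 2.06 and 2.54 FPKM in WT and at 2.09, 4.57 and 1.58 FPKM in Nlk-KO, where the groups overlap.

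The highest levels among the longest loci belonged to 4 that did not pass. XLOC_023821, over the long noncoding RNA Gm26853 on chromosome 8, ran from 128 to 167 FPKM over the 6 libraries. XLOC_023823, over the pseudogene Gm21092 on the same chromosome, was at 90.7, 115 and 126 FPKM in WT and at 28.8, 104 and 60.3 FPKM in Nlk-KO, a wide spread with overlap (limma adjusted p = 0.113). XLOC_022590 on chromosome 7 and XLOC_011586 on chromosome 19, both over processed pseudogenes, differed by 0.15 and −0.07 on the log2 scale. XLOC_023823 passed under 4 of its 19 alternatives, among them the fit without Nlk-KO 2 (limma adjusted p = 0.0216) and that with equal sums over loci with a symbol of at least 300 bp (0.000945), and XLOC_022590 passed without Nlk-KO 2 (0.0484).

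In the class of 300 bp to 5 kb, XLOC_008566 (chr15:75086256-75087039) fell most among the loci of at least 1 FPKM. It was at 2.76, 2.96 and 3.09 FPKM in WT and at 0.439, 0.640 and 0.480 FPKM in Nlk-KO. The groups lay far apart, with a log2 difference of −2.30 ± 0.14 (SE, limma adjusted p = 2.87e-05). XLOC_008605, 26570 bp from the amino acid transporter gene Slc38a1, fell from 1.72 to 0.504 FPKM. XLOC_011408 on chromosome 18 rose from 1.16 ± 0.15 to 2.72 ± 0.29 FPKM (SD, n = 3). Among called loci of at least 1 FPKM without overlap, the 5 largest changes in each direction were taken from this class, and the other 7 of these 10 were between −1.05 and 0.75 on the log2 scale, and 5 of these 7 lost the call under at least 1 alternative. The most abundant locus of the class that passed, XLOC_002678 over the pseudogene Gm9855 on chromosome 10, was at 81.5, 84.4 and 79.9 FPKM in WT and at 69.4, 64.0 and 65.6 FPKM in Nlk-KO, a small difference with no overlap. Its call did not hold with the median of each chromosome removed or with equal sums over loci with a symbol (limma adjusted p of 0.112 and 0.863). XLOC_001880, over an exon of Pwp1, had the highest mean of the class at 176 FPKM in WT and 135 FPKM in Nlk-KO and did not pass, as did XLOC_019323 and XLOC_011332.

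**Figure D3:**
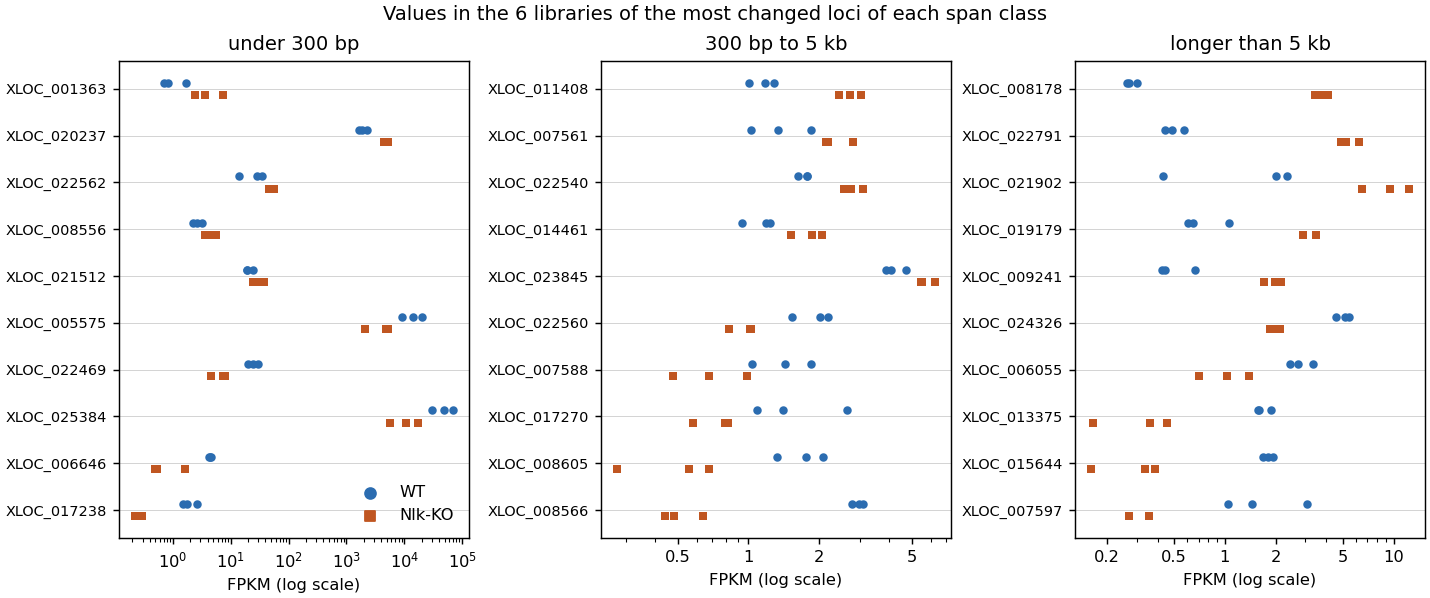
FPKM (log scales that differ between panels) of the 5 loci that rose and the 5 that fell most in each span class, taken from called loci whose mean was 1 FPKM or more and whose genotypes did not overlap, WT as circles and Nlk-KO as squares, 3 libraries each. The Nlk-KO value of 0 for XLOC_007597 cannot be drawn, and XLOC_008178 moves from about 0.279 to 3.72 FPKM.

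Among the loci under 300 bp a change with little spread was found at XLOC_020237, of 99 bp (chr6:71493221-71493319). It lay 575 bp from Rnf103, a ubiquitin ligase gene, and was at 1876, 2298 and 1671 FPKM in WT and at 5314, 5054 and 4444 FPKM in Nlk-KO. All Nlk-KO libraries were above WT, with a log2 difference of 1.35 ± 0.15 (SE, limma adjusted p = 0.000514), and Rnf103 itself differed by 0.04. Fragments were not counted at 99 bp, so on how many this change rested is not known. XLOC_017238, of 272 bp on chromosome 4, fell from 1.94 to 0.257 FPKM, and XLOC_022469, of 142 bp on chromosome 7, fell from 24.7 to 6.66 FPKM. XLOC_008556 and XLOC_021512 rose by 0.68 and 0.60 on the log2 scale, calls that did not hold under 6 and 7 of the alternatives. The changes at the very shortest loci rested on a handful of fragments. XLOC_025384, of 84 bp on chromosome 9, fell from 48989 to 11170 FPKM, which was 5, 10 and 17 fragments in WT and 1 and 4 in the Nlk-KO libraries 1 and 3. This call did not hold under 4 of the alternatives, those without Nlk-KO 1 and without Nlk-KO 2 among them (limma adjusted p up to 0.0775). XLOC_005575, of 87 bp at the end of Gm5436, fell from 14630 to 4038 FPKM, or from 5, 4 and 11 fragments to 2, 2 and 1. Over its whole length Gm5436 shares 41.1% of its 31-base runs with Atp5o, a subunit gene of the mitochondrial ATP synthase. Only 12 bases of Gm5436 lay inside the locus, fewer than 1 such run. Atp5o was lower as well, by −0.19 on the log2 scale (limma adjusted p = 0.0455), and whether the changes are linked was not tested.

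Of the 81 short loci on pseudogenes 1 rose and 7 fell, or 9.88%, against 12.1% of all loci under 300 bp and 37.1% over all loci tested. For 7 of these 8 the gene closest in sequence was tested, and 2 of those genes passed, Atp5o and Fgfr1op2, both lower like the locus. A pair of them that lie wholly inside the pseudogene is shown, the most abundant that fell, on Gm6969 (chr12:24638718-24638870, minus strand), and the one that rose, on Gm4972 (chr7:105412897-105413039, minus strand). All bases are in capitals because all lie inside the locus, and both stretches come from GENCODE M21 transcripts.
Gm6969: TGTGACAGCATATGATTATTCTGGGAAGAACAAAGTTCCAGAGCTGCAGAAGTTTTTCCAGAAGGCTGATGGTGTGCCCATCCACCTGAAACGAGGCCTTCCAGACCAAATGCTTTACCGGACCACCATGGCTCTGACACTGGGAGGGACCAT
Gm4972: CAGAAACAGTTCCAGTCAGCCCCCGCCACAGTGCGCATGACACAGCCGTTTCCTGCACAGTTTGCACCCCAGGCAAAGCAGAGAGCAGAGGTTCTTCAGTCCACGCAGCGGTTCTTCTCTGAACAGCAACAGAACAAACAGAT
The gene closest to Gm6969 in sequence was Cox7a2l, which shares 78.2% of its 31-base runs, and for Gm4972 it was Prrc2c with 53.3%. XLOC_005539 on Gm6969 was at 522, 588 and 480 FPKM in WT and at 406, 410 and 448 FPKM in Nlk-KO, with no overlap and a log2 difference of −0.33, while Cox7a2l differed by −0.05 and was not called. XLOC_022562 on Gm4972 was at 28.4, 14.0 and 35.0 FPKM in WT and at 56.2, 46.0 and 49.1 FPKM in Nlk-KO, while Prrc2c differed by 0.05 and was not called. The call of XLOC_022562 did not hold under 9 of the alternatives tried. XLOC_017226 at the end of Gm12751, a copy of Polr1d (a subunit of RNA polymerases I and III) with all its 31-base runs, fell from 311 to 231 FPKM.

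Of the 10 loci over small RNA genes 5 passed, all higher in Nlk-KO, but the 10 are few and were grouped after their values were seen. In 4 of these 5 the WT mean was under 0.5 FPKM, so that they reached the level only through Nlk-KO and had to be higher there. Of the 5 loci with both genotype means at 0.5 FPKM or more, 1 passed, XLOC_019179. Small nuclear RNAs form the core of the spliceosome and small nucleolar RNAs guide the modification of other RNAs. The sequences of 4 of the 5 genes are shown to tell them apart. They are Gm24950 (chr11:101641748-101641938, plus strand), Gm23655 (chr16:89451495-89451599, minus strand), Gm26144 (chr4:56678904-56679035, minus strand) and Gm22622 (chr6:59705746-59705874, minus strand), with GENCODE M21 as the source. Capitals mark GTAGTA, the letters with which U2 pairs to the branch point.
Gm24950: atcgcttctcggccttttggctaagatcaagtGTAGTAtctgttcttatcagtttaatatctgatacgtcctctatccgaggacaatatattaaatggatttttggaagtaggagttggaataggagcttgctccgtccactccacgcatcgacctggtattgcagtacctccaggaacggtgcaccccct
Gm23655: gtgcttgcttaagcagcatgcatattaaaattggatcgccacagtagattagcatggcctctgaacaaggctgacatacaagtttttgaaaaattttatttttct
Gm26144: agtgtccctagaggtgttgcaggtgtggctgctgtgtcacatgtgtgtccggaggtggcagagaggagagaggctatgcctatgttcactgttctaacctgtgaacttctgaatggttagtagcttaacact
Gm22622: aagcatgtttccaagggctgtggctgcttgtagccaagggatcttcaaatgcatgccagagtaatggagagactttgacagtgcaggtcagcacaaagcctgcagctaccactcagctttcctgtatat
On the sense strand of the 1383 annotated small nuclear RNA transcripts, GTAGTA occurs in 3.69%. Another run searched, ACAGAGA of U6, occurs in 42.2% of them, in none of the 4 genes shown and in 1 other under these loci, Gm22818, whose locus XLOC_008347 did not pass. Gm24950 and Gm23655 are annotated as small nuclear RNAs, and Gm26144 and Gm22622 as small nucleolar RNAs.

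XLOC_017273, a 290-bp locus over a small nuclear RNA gene, was at 0.257, 0.244 and 0.220 FPKM in WT and at 1.53, 1.49 and 1.73 FPKM in Nlk-KO. All Nlk-KO values were far above WT, with a log2 difference of 2.31 ± 0.14 (SE, limma adjusted p = 3.03e-05). XLOC_009466, of 2736 bp around Gm23655, was at 0.157, 0.103 and 0.136 FPKM in WT and at 0.554, 1.19 and 1.05 FPKM in Nlk-KO. XLOC_019179, an 8044-bp locus with Gm22622 near its end, was at 0.609, 0.652 and 1.06 FPKM in WT and at 3.46, 3.47 and 2.91 FPKM in Nlk-KO. In these last loci the small RNA gene covers only 105 and 129 bases, so the values describe the locus and not the small RNA. XLOC_016638 around Gm26144 rose from 0.319 to 0.769 FPKM and XLOC_004660 around Gm24950 from 0.377 to 0.672 FPKM. The libraries were made from polyadenylated RNA, and how much of a mature small RNA they hold was not tested. Among the named RNAs listed, Rn45s, Rpph1, Rmrp and Terc are made without a poly(A) tail. Rn45s and Rpph1 rose, and Rmrp and Terc did not pass. The other RNAs listed were not sorted by their tails. Among those, Malat1 did not pass and Neat1 fell, as given below. Rn45s, the precursor of ribosomal RNA, was at 222, 220.1 and 247 FPKM in WT and at 296, 307 and 370 FPKM in Nlk-KO (limma adjusted p = 0.00524). Rpph1, the RNA of ribonuclease P, rose from 6.24 to 8.46 FPKM (0.0162), and Rmrp was at 1.95 FPKM in WT and 3.33 FPKM in Nlk-KO (0.187). The part of such RNAs in the values of the small RNA loci was not tested.

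The position of the loci relative to named genes was examined for the 848 that share no coordinates with a locus with a symbol. Of these, 117 lay within 1 kb of a tested locus with a symbol, and 21 of the 117 passed. In 12 of the 21 (57.1%) the neighbour passed as well, and in all 12 it moved in the same direction. Over all loci with a symbol 38.3% passed. Among the 12, XLOC_011823, XLOC_023925, XLOC_008615 and those near Ern1, Ano10 and the merged Asic1 and Smarcd1 locus reached the level only through 1 genotype. Their own direction was fixed by this, so the 12 of 12 is not a test of direction. From 1 to 10 kb the neighbour passed in 6 of 26 (23.1%), in the same direction in 5. From 10 to 50 kb it passed in 17 of 42 (40.5%), in the same direction in 11, and beyond 50 kb in 43 of 92 (46.7%), in the same direction in 24, shares near that of all loci with a symbol. The read strand of these loci is not in the table, and whether a near locus is part of its neighbour's transcript was not tested.

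**Figure D4:**
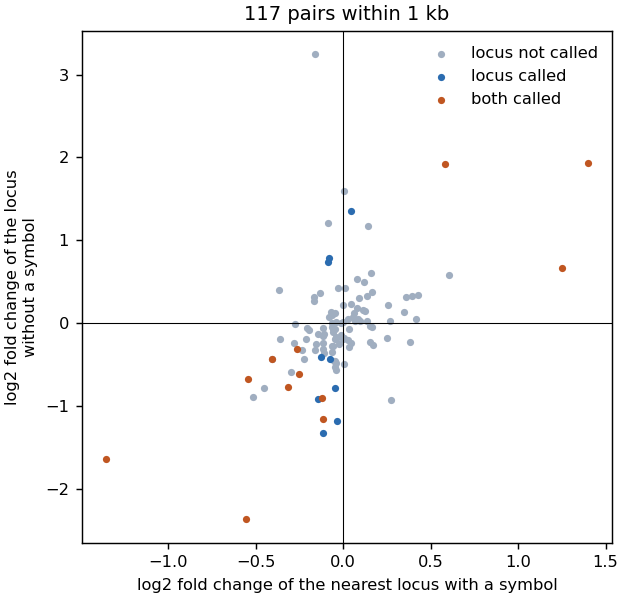
Log2 fold change (Nlk-KO minus WT) of 117 loci without a symbol against that of the nearest tested locus with a symbol within 1 kb, one point per pair. The 12 pairs in which both were called all have the same sign on both axes, as for XLOC_022540 (0.66) and Ntrk3 (1.25). Some of these loci, XLOC_011823 beside Gfra1 among them, reached the level only through 1 genotype, so their sign was fixed.

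In 3 of the 12 pairs both rose. XLOC_011823 (chr19:58455475-58455979), over an exon of Gfra1 and 77 bp from the tested locus of this gene of a receptor subunit for the growth factor GDNF, was at 0.266, 0.249 and 0.384 FPKM in WT and at 1.81, 1.49 and 1.02 FPKM in Nlk-KO. It rose by 1.93 on the log2 scale and Gfra1 by 1.40. XLOC_022540, over an exon of Ntrk3 and 221 bp from the tested locus of this neurotrophin receptor gene, was at 1.63, 1.78 and 1.77 FPKM in WT and at 3.10, 2.74 and 2.55 FPKM in Nlk-KO. It rose by 0.66 and Ntrk3 by 1.25. XLOC_001363, within an intron of the adaptor gene Nck2 and 90 bp from its tested locus, rose by 1.92 where Nck2 rose by 0.58, a call lost with a robust prior (limma adjusted p = 0.0646).

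In the other 9 pairs both fell. XLOC_023925, 314 bp from Pou4f2, a transcription factor gene of sensory and retinal neurons, was at 1.03, 1.55 and 0.943 FPKM in WT and at 0.393, 0.269 and 0.248 FPKM in Nlk-KO. The locus fell by −1.64 on the log2 scale and Pou4f2 by −1.36. XLOC_006646, over an exon of Rab3c, a vesicle GTPase gene, was at 4.28, 4.42 and 4.49 FPKM in WT and at 1.62, 0.544 and 0.490 FPKM in Nlk-KO, so that it fell by −2.37 where the Rab3c locus 461 bp away fell by −0.56. XLOC_019905, 130 bp from Gata2, was at 2.75, 2.48 and 2.81 FPKM in WT and at 1.88, 2.22 and 1.76 FPKM in Nlk-KO, and Gata2, a transcription factor gene of blood and sympathetic cells, fell by −0.41 beside its −0.44. XLOC_008615, 280 bp from Prph, which encodes the neuronal intermediate filament peripherin, fell by −0.68 and Prph by −0.55. The loci near Ern1, Ppil4, Me2, Ano10 and the merged Asic1 and Smarcd1 locus fell with their neighbours too. The locus near Ppil4, XLOC_002113 on chromosome 10, lay over an exon of another gene, Ginm1. At the loci near Pou4f2, Prph, Ern1, Ano10 and the merged locus the Nlk-KO mean was below 0.5 FPKM. It was 0.303, 0.477, 0.451, 0.381 and 0.317 FPKM in this order. These loci reached the level only through WT and had to be lower in Nlk-KO. In 9 of the 21 pairs the neighbour did not pass, XLOC_020237 beside Rnf103 among them.

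By chromosome, loci that fell outnumbered those that rose on 15 of 21 chromosomes, and the opposite held on 2. The named loci of chromosomes 2 and 10 were lopsided, in a way that the loci without a symbol did not share throughout. On chromosome 2, 555 of 966 loci with a symbol were higher in Nlk-KO and 48 were lower, whereas of 76 loci without a symbol 7 were higher and 13 lower. On chromosome 10, 50 of 597 loci with a symbol were higher and 316 lower, and of 49 without a symbol 2 were higher and 10 lower. Chromosome 9 had the highest share of calls among chromosomes with at least 10 loci, 15 of 35, of which 12 fell. On chromosome X none of 24 loci without a symbol passed by limma, although 3 had an unadjusted p under 0.05, against 84 higher and 40 lower among 389 with a symbol.

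**Figure D5:**
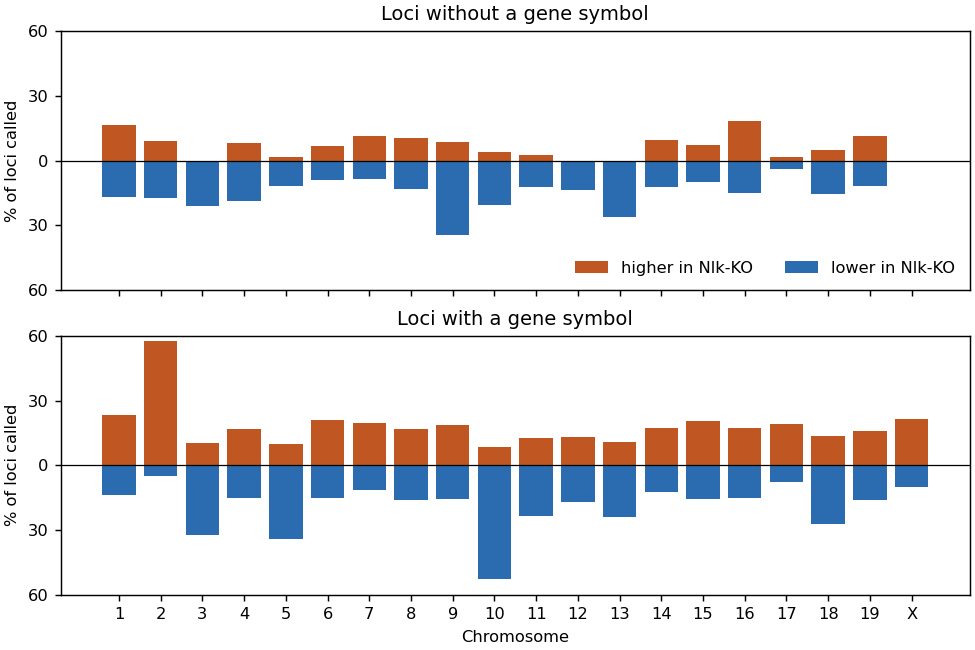
Percentage of loci called higher (upward bars) or lower (downward bars) in Nlk-KO on each autosome and X, for the loci without a symbol in the upper panel and for those with one in the lower panel. On chromosome 2 the loci with a symbol are mostly higher (555 of 966), while those without one are 7 higher and 13 lower of 76.

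Among called loci of at least 1 FPKM the largest changes on chromosomes 2 and 10 were these. On chromosome 2, XLOC_013375 (chr2:21879356-21964106), without annotation and 47409 bp from Gpr158, a receptor gene of the nervous system, was at 1.88, 1.57 and 1.60 FPKM in WT and at 0.360, 0.166 and 0.457 FPKM in Nlk-KO. XLOC_012641 over the pseudogene Gm13668 fell from 2.98 to 1.54 FPKM. With XLOC_014337, given above, the 3 such changes on this chromosome were all lower in Nlk-KO. On chromosome 10, XLOC_001656 over the long noncoding RNA Gm40652 was at 1.04, 1.01 and 0.955 FPKM in WT and at 2.63, 3.19 and 2.99 FPKM in Nlk-KO, a rise against the direction of most loci there. XLOC_002117 fell from 1.42 to 0.634 FPKM and XLOC_002657 from 5.02 to 3.07 FPKM, the latter without passing under equal sums over loci with a symbol (limma adjusted p = 0.0585).

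As a comparison, 42 well-known noncoding RNAs that do have a symbol were listed. Of these 26 had a row, 18 were tested, 3 rose, 3 fell and 12 did not pass, with a median log2 difference of −0.04. Firre, which organises nuclear chromatin, was at 1.59, 1.59 and 1.98 FPKM in WT and at 0.893, 1.07 and 0.986 FPKM in Nlk-KO. Neat1, the scaffold of paraspeckles, fell from 14.6 to 10.7 FPKM, and Peg13, an imprinted RNA, rose from 8.70 to 10.4 FPKM. Malat1 was at 12.01, 11.95 and 16.24 FPKM in WT and at 16.51, 16.48 and 14.98 FPKM in Nlk-KO and did not pass (limma adjusted p = 0.117).

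The level rule itself left loci close by on either side. The 3 loci just inside it had means of 0.5004 to 0.5011 FPKM and the 3 just outside of 0.4988 to 0.4990 FPKM. The 2130 loci without a symbol below 0.5 FPKM were not tested, and none of them was at 0 in all libraries. Of the 934 loci 27 were listed at 0 in at least 1 library, 18 of them under 300 bp.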

How the data were processed

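Polyadenylated RNA of N2a cells was sequenced in 3 libraries of each genotype, WT and Nlk-KO. According to the methods, and to the notes of the submitters, the authors aligned reads with TopHat2 (2.1.0) to GRCm38 (mm10), assembled and estimated loci with Cufflinks (2.2.1), and deposited FPKM normalized with Cuffnorm. Which annotation was supplied to Cufflinks is not given in the sources used here. Columns holding the authors' fold changes, p-values and adjusted p-values were set aside. In addition, 1 line held no values, and 0 library columns stayed unmapped. Starts were read as 0-based: for 5546 loci with a symbol the start plus 1 equals the annotated start, and for 554 the start itself does.

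After adding 0.1 and taking log2, the FPKM of every locus averaging 0.5 or more entered 1 fit of limma (version 3.58.1, in R 4.3.3), its prior variance following the mean. Fold changes are on this scale, which understates changes of low loci. The Benjamini-Hochberg adjustment ran over all tested loci, with a threshold of 0.05. Simulated data with known changes served to test the fit. With 3 against 3 libraries an exact permutation test of 1 locus cannot go below 0.1, so none is given. Fragments were counted where at least 5 loci of 1 span gave whole multiples within 0.003 of a fragment.

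The loci, lists and tests were chosen with earlier results of these data known. Named loci are the 4 with the highest mean in each span class, the 5 largest changes in each direction per class among called loci averaging 1 FPKM or more without overlap, and the 3 largest on chromosomes 2 and 10. Others named were chosen after their values were seen. Some items are not reported here. Annotation was GENCODE M21 by largest exon overlap. Alternatives were other pseudocounts, filters, scalings, priors, a replicate block and leaving out each library.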

Additional observations from a re-analysis of the deposited data

How the results depend on the processing

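The main counts were 65 loci higher and 134 lower in Nlk-KO, with 26 calls under 300 bp, 66 from 300 bp to 5 kb and 107 above. Testing for more than 1.2-fold left 30 higher and 44 lower, with 8, 20 and 46 calls in the 3 span classes, since it asks for more than any change. A minimum mean of 5 FPKM, which left 246 of the 934 loci in the fit, gave 8 higher and 23 lower, with 5 calls from 300 bp to 5 kb and 8 above. Equal sums over loci with a symbol gave 86 lower (68 higher), with 54, 43 and 57 calls by class, while the calls over all loci tested went from 4697 to 921. The same over loci with a symbol of at least 300 bp, added after seeing the data, gave 86 lower, with 54, 43 and 59. The calls under 300 bp were 15 with a robust prior and 7 with the span classes fitted separately. Counting only loci with coordinates of their own, also added later, gave 42 higher and 45 calls above 5 kb. With equal sums limma estimated an infinite prior, so that every locus took the spread of the trend and none its own. For these shifts beyond what fewer loci explain, the cause was not tested. Leaving out 1 library at a time gave 54 to 69 higher and 108 to 140 lower, with 17 to 26 calls under 300 bp, the 17 without WT replicate 1, 52 to 63 from 300 bp to 5 kb and 88 to 110 above.

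With a replicate block 64 were higher and 135 lower, 199 in all of which 171 were called in both fits. The correlations of same-numbered libraries' deviations were 0.0374, 0.0599 and -0.1319, which cannot decide whether the numbers pair the libraries. The FPKM of 1 fragment at 87 bp had the same order by number in both genotypes. It was 2806, 2307 and 1875 in WT 1 to 3 and 2608, 2411 and 2076 in Nlk-KO 1 to 3. Whether same-numbered libraries were handled together was not tested.

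Of the 36 named loci that passed, 21 kept the call and the direction under every alternative that gave them a value, 15 lost the call under at least 1 and 0 changed sign. Of the 11 that did not pass, 3 passed under at least 1 alternative, XLOC_023823, XLOC_022590 and XLOC_001880. At the shortest spans depth limits what can be seen, because 52.5% of the values that could be turned into fragments were under 10. Intervals are not given, since total reads are unknown.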
